A study of Mus musculus with 7 samples.

Results

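RAW264.7, a mouse monocyte-macrophage line that can form bone-resorbing osteoclasts, was profiled by ATAC-seq, an assay that tags open DNA with a transposase. The regions described here had a peak in every library of treated cells and in no library of untreated cells, and they are called treated-only regions. They were chosen from the peak calls of all 7 libraries: overlapping or book-ended peaks of the 7 lists were joined into 344401 regions, and a region was taken when at least 1 bp of a peak lay in it in both RANKL, both RANKL+Ibet and the Ibet only library, and in neither Untreated library. There were 1390 of them, 0.404% of all joined regions. The treated cells had 4 h with RANKL at 50 ng/ml (2 libraries), with RANKL at 50 ng/ml together with Ibet at 500 nM (2 libraries), or with Ibet at 500 nM without RANKL (1 library, labelled replicate 2). The reference was untreated cells (2 libraries), for which the labels give neither a time nor a vehicle. All groups are the same cell line, given as of bone marrow source, with no other allele or agent named. Nothing in the labels tells if replicates were grown apart, and their spread may be technical. The call rule used every library, so the calls and the strengths of these peaks are descriptions without a test. What I-BET does without RANKL rests on 1 library.

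RANKL is the cytokine that commits macrophage precursors to the osteoclast fate. Its receptor signals through the adaptor TRAF6 to NF-kB, AP-1 and, after calcium signals, to the transcription factor NFATc1. BET proteins such as BRD2 bind acetylated histones at active enhancers and promoters and help to recruit the elongation machinery. I-BET compounds occupy the acetyl-lysine pocket of BET proteins and release them from chromatin. Both agents can change gene regulation within hours, and the regions below are places at which a peak was called after either of them.

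The reverse kind, with a peak in both Untreated libraries and in none of the 5 treated ones, numbered 799 (0.232% of all regions). Of the 13347 regions called in exactly 5 of the 7 libraries, the treated-only regions made up 10.4%. The counts depend on single libraries. Without the Ibet only library the rule found 3213 regions, and without RANKL+Ibet replicate 1 it found 2614. Without Untreated replicate 2 it found 15094, because 13704 regions had peaks in all 5 treated libraries and in that Untreated library, but not in Untreated replicate 1. Only 631 had peaks in all 5 treated libraries and in Untreated replicate 1 alone. Without Untreated replicate 1 the count was 2021.

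The libraries differed in depth, which the files show only through the folds. With the fold read as summit pileup plus 1 over background pileup plus 1, as MACS2 writes it, all folds of each list were whole multiples of 1 step, within 0.02 of a step. The step gave a background pileup of 4.12 and 2.04 reads in RANKL replicates 1 and 2, 3.92 and 13.8 in RANKL+Ibet replicates 1 and 2, 1.11 in Ibet only replicate 2, and 2.55 and 1.81 in Untreated replicates 1 and 2. The lists held 117175 to 166369 peaks. Of the regions called in Untreated replicate 1, 42.9% were called in no other library, against 8.95% to 27.1% in the other 6. Promoters of macrophage genes were open more often than those of other cell types. Of 18 macrophage genes with a promoter window in the reference, 15 had a region of all 7 libraries over it, Cebpa, Itgam, Cd68 and Lyz2 among them, against 0 of 7 B lymphocyte genes, 2 of 9 T lymphocyte genes, 0 of 9 fibroblast and osteoblast genes and 3 of 13 granulocyte and erythroid genes (41.0% of all genes with a window).

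Of the 1390 treated-only regions 18 (1.29%, exact 95% interval 0.769% to 2.04%) overlapped a promoter window, from 250 bases before a transcription start to 50 after it, against 4.01% of all joined regions and 22.2% of the longer regions called in all 7 libraries. Most of those windows belonged to predicted or non-coding genes. The 4 protein-coding genes among the 12 strongest of these 18 were Fxyd4, Zfp819, Heatr9 and B3galt5. Their windows are shown because they hold sequence under these 4 regions, read 5′ to 3′ along the gene (RefSeq, GRCm38.p6). Capitals mark matches to the 13 short words listed after them.

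Fxyd4, minus strand, chr6:117937286-117937585: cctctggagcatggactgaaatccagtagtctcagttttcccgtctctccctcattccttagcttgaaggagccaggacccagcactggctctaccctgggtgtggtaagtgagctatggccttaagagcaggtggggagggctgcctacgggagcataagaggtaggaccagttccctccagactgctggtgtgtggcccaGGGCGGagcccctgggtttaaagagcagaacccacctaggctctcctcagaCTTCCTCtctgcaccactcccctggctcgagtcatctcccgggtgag
Zfp819, plus strand, chr7:43606919-43607218: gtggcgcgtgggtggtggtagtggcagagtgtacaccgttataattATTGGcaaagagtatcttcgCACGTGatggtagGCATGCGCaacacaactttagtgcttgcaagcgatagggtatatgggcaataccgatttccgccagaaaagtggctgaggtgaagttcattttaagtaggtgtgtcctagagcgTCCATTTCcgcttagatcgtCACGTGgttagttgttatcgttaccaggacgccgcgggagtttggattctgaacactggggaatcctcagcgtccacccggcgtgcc
Heatr9, minus strand, chr11:83522050-83522349: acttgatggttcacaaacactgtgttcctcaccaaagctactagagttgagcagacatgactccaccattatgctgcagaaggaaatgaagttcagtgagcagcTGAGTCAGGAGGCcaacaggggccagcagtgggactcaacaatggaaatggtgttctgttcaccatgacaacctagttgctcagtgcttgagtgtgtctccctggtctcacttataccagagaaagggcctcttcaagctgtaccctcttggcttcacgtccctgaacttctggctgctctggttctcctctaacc
B3galt5, plus strand, chr16:96273263-96273562: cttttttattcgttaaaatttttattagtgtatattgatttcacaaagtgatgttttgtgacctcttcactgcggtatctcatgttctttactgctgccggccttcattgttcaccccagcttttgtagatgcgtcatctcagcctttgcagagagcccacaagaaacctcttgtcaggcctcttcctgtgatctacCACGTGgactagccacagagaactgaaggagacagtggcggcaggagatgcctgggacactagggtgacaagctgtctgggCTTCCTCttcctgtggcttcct

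Fxyd4 encodes a small regulator of the sodium pump, Zfp819 a zinc-finger protein, Heatr9 a HEAT-repeat protein and B3galt5 a galactosyltransferase. Where a pair of values is given for a treatment, replicate 1 is followed by replicate 2. Folds come from lists of different background and are not ordered between libraries. An order between libraries is given, as a description, only for the strength of a peak within its own list, the share of that list with a smaller -log10 p. The region over Fxyd4 had folds over background of 3.13 and 4.27 in RANKL cells, 3.25 and 3.77 in RANKL+Ibet cells and 5.68 in Ibet only cells. The one over Zfp819 had 3.13 and 4.60 in RANKL cells, 3.25 and 3.37 in RANKL+Ibet cells and 4.26 in Ibet only cells. At Heatr9 the folds were 2.54 and 5.91 in RANKL cells, 3.25 and 3.57 in RANKL+Ibet cells and 3.78 in Ibet only cells. The within-list strength was highest in the Ibet only library at Fxyd4 (68.0%) and Zfp819 (55.3%), and in RANKL replicate 2 at Heatr9 (57.1%). At B3galt5 the folds were 3.32 and 3.29 in RANKL cells, 3.05 and 3.23 in RANKL+Ibet cells and 3.31 in Ibet only cells. No Untreated peak was called at any of them, and the nearest one lay 464 bp away at Fxyd4, 361 bp at Zfp819, 2042 bp at Heatr9 and 4048 bp at B3galt5. At Zfp819 the 5 summits lay from 147 bases before the start to 151 after it (-147 to 151), and at B3galt5 from -199 to 216, whereas at Heatr9 all lay before the start, from -254 to -75. At Fxyd4 the summits ran from -628 to 134. At none of these genes did all 5 summits lie in the window shown.

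The words were searched on both strands: TGANTCA (AP-1), TGACGTCA (CRE), a simplified NF-kB word, GAGGAAG (PU.1), TTGCNNAA (C/EBP), CACGTG (E-box), CCGGAAG (Ets), GAAANNGA (IRF), GGGCGG (GC box), AGGNGGC (CTCF), TCACGTGA (MITF, which contains the E-box), GCGCATGC (NRF1) and CCAAT. At Heatr9 the AP-1 and CTCF words overlap. PU.1 is the transcription factor that defines the macrophage lineage, and GAGGAAG, a core of its sites, was in the window of 7 of the 18 regions, counting each region once. It was in 13.6% of all 32851 windows and in 14.2% of the 13126 windows under a region of all 7 libraries. Whole windows were searched, also where a region overlapped only part of one. At Gm6116 and Gm36459 the regions covered 152 and 63 of the 300 bases, and the GAGGAAG word lay outside them. GGGCGG was in 4 of 18, against 35.7% of all windows and 62.9% of those open in all 7 libraries. CCAAT, in 7 of 18 like the PU.1 word, was in 37.4% of all windows, AGGNGGC (5 of 18) in 29.4% and GAAANNGA (3 of 18) in 21.0%. TTGCNNAA and GCGCATGC were in 1 each (10.8% and 2.71%). TGANTCA was in 2 of 18 (7.81% of all windows), the NF-kB word in 2 (20.7%), CACGTG in 3 (7.15%), and TGACGTCA, CCGGAAG and TCACGTGA in 0 (1.79%, 8.86% and 0.974%). The 21 windows had a median of 53.0% G and C and 6 CpG, close to all windows (52.7% and 7), whereas those open in all 7 libraries had 61.0% and 21. With 18 regions these shares are descriptions, and a match is a word in the window and not a site.

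There were 9 regions within 5 kb of a microRNA hairpin, 0.647% of the treated-only regions (exact 95% interval 0.296% to 1.23%), against 0.877% of all regions. These microRNAs were looked up after the values had been seen. One region, chr4:156053896-156054509, covered the hairpin of Mir429 and ended 386 bp from that of Mir200a and 1171 bp from that of Mir200b. Another, chr1:193510201-193511140, lay over the promoter window of Mir205hg, the host transcript of Mir205, 2670 bp from the hairpin. The microRNAs of the miR-200 family and miR-205 are known in epithelial cells as repressors of Zeb1 and Zeb2. The mature sequences are shown with the seed, bases 2 to 8, in capitals (RefSeq, GRCm38.p6), because 2 of them share a seed.

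miR-200b-3p: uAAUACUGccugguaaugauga
miR-429-3p: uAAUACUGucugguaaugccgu
miR-200a-3p: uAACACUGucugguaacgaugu
miR-205-5p: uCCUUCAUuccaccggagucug

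miR-200b-3p and miR-429-3p share the seed AAUACUG, and miR-200a-3p has AACACUG. By mean within-list strength the region at Mir429 ranked 1289 of 1390 and that at Mir205hg 1031. The one at Mir429 had folds of 3.13 and 3.94 in RANKL cells, 2.85 and 2.83 in RANKL+Ibet cells and 2.36 in Ibet only cells, the lowest fold of any peak in that list. The one at Mir205hg had 4.10 and 4.93 in RANKL cells, 3.05 and 2.83 in RANKL+Ibet cells and 2.84 in Ibet only cells.

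Most treated-only regions were distal. Only 3.02% (42; exact 95% interval 2.19% to 4.06%, counting error only) were centred within 1 kb of where a protein-coding gene starts or ends, against 7.51% of all regions (7.42% to 7.60%) and 22.4% of those called in all 7 libraries (22.0% to 22.8%). This share moved with the processing. It was 5.91% when peaks had to cover 50% of a region, 4.66% without Untreated replicate 2 and 1.62% without regions that had an Untreated peak within 5 kb. The 50% rule applied to Untreated peaks too, so regions kept under it could hold a smaller Untreated peak. Inside a gene lay 52.7% of the treated-only regions (50.0% to 55.3%), against 56.9% of all regions and 61.5% of regions of all 7 libraries. More than 50 kb from every transcription start lay 31.9% (29.4% to 34.4%), against 27.2% of all regions and 18.2% of regions of all 7 libraries, and the median distance to a start was 26385.5 bp, against 20712 bp for all regions. The 1823 regions called in both RANKL and both RANKL+Ibet libraries, but neither in the Ibet only nor in the Untreated libraries, gave 3.35% (2.57% to 4.28%), 51.8% (49.5% to 54.1%) and 31.7% (29.5% to 33.8%). The intervals of these 2 kinds of region overlapped for all 3 features. Regions are not replicates, so no p-value is given, and the regions also differ in length, with a median of 570 bp for treated-only regions, 308 bp for all regions and 1312 bp for regions of all 7 libraries.

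**Figure D1:**
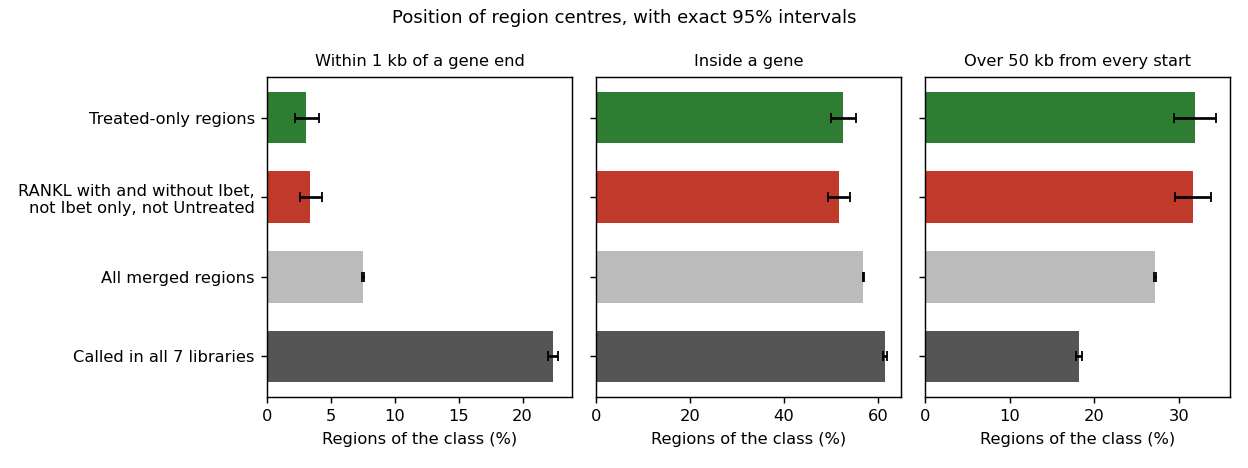
Share of region centres (x axis, %) within 1 kb of a protein-coding gene end, inside a gene, and over 50 kb from every transcription start, for 4 kinds of region; lines are exact 95% intervals for counting error. The 1390 treated-only regions (green, 3.02%, 52.7% and 31.9%) lay close to the 1823 RANKL regions without a peak in the Ibet only library (red), and had a smaller share at gene ends than all regions (light grey) and regions of all 7 libraries (dark grey).

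By chromosome, treated-only regions made up between 2.42 of 1000 regions on chromosome 11 (1.83 to 3.14, exact interval) and 7.67 of 1000 on chromosome X (25 of 3259, 4.97 to 11.3). Chromosomes 13 and 6 followed with 5.54 and 5.52 of 1000, and chromosome Y had 0 of 52, for which the exact interval reaches 68.5 of 1000. Of the treated-only regions 38 (2.73%) lay within 10 kb of another, in 19 pairs, and the median distance to the next was 363958 bp. Of the 1823 RANKL regions without an Ibet only peak, 2.91% lay within 10 kb of a treated-only region, with a median distance of 416610 bp. Whether this spacing differs from an even spread was not tested. Within 10 kb of a region of all 7 libraries lay 49.1% of the treated-only regions and 49.0% of those 1823.

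The peaks themselves were of low to middling strength. In RANKL replicates 1 and 2 the median fold over background was 3.71 and 4.27, in RANKL+Ibet replicates 1 and 2 it was 3.46 and 4.38, and in the Ibet only library 3.78. At the summit this came to a median pileup of 18 and 12 reads in RANKL, 16 and 64 in RANKL+Ibet and 7 in Ibet only, where the lowest was 4. Regions of all 7 libraries had median folds of 11.3 and 17.1 in RANKL, 10.4 and 17.3 in RANKL+Ibet and 10.9 in Ibet only. The 1823 RANKL regions without an Ibet only peak had lower median folds than the treated-only regions, 3.52 and 3.94 in RANKL and 3.25 and 3.71 in RANKL+Ibet. The within-list strength had a median of 56.7% and 42.1% in RANKL, 46.2% and 57.2% in RANKL+Ibet and 46.1% in Ibet only. The highest such share was 85.5% and 82.2% in RANKL, 81.6% and 84.6% in RANKL+Ibet and 82.6% in Ibet only, so that none was among the very strongest peaks of a list. A -log10 q of at least 2 in all 5 treated libraries was reached by 581 (41.8%) and of at least 5 by 41. In the Ibet only library 620 (44.6%) were under 2.

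**Figure D2:**
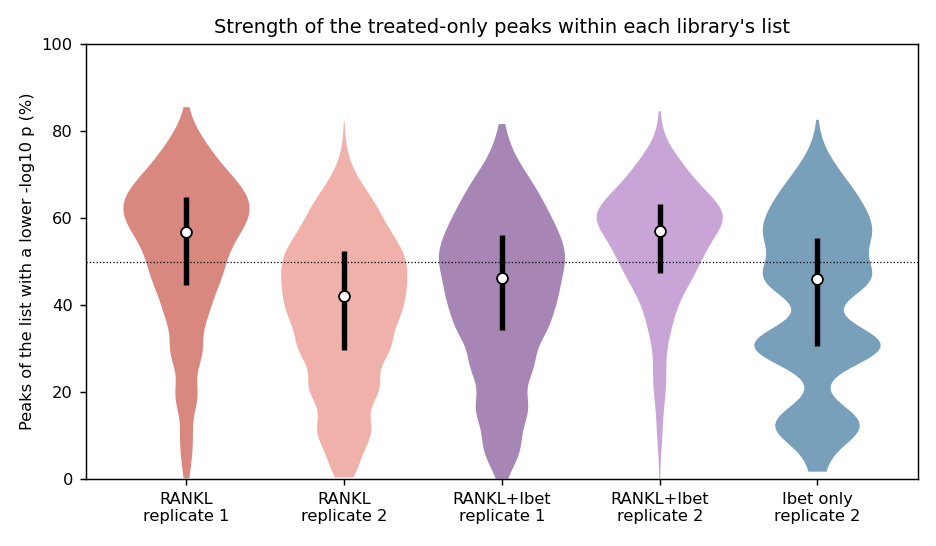
Strength of the peaks of the 1390 treated-only regions within the list of each treated library, as the share of that list with a smaller -log10 p (y axis, %); shapes are distributions, white circles are medians, and black bars run from the first to the third quartile. Medians lie between 42.1% and 57.2%, and the Ibet only library, in which the median summit held 7 reads, has separate bulges.

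The same regions were not equally strong everywhere. Over the 1390 regions, Spearman's rho of the folds was 0.58 between RANKL replicate 2 and RANKL+Ibet replicate 2 and 0.43 between RANKL replicate 1 and RANKL+Ibet replicate 1. Between replicates of 1 treatment it was 0.27 for RANKL and 0.28 for RANKL+Ibet. Against the Ibet only library it was between 0.14 and 0.20 for the other 4. These are correlations across regions chosen by the calls of the same libraries, with small read numbers that take few values, and they carry no p-value. Between RANKL replicate 1 and RANKL+Ibet replicate 2 it was 0.41, and between RANKL replicate 2 and RANKL+Ibet replicate 1 it was 0.18. The order of the regions by fold thus differed widely between libraries, also within a treatment.

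The 5 libraries placed their peaks near each other, but not on 1 point. In 1143 regions (82.2%) at least 1 bp lay under peaks of all 5 treated libraries, and in 247 (17.8%) no base did, so that the joining of neighbouring peaks made the region. The best summits of the 5 libraries fell within 100 bp of each other in 253 regions and had a median spread of 246 bp. In 1134 regions each treated library had a single peak.

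Absence from untreated cells means that no peak was called there. The lowest fold of any Untreated peak was 2.26 in replicate 1, a pileup of 7 reads, and 2.49 in replicate 2, a pileup of 6. The nearest Untreated peak lay at a median of 2461 bp, within 100 bp for 19 regions, within 500 bp for 223 (16.0%) and within 5 kb for 958 (68.9%). The 1823 RANKL regions without an Ibet only peak were close to this, with a median of 2517 bp, 13.8% within 500 bp and 67.0% within 5 kb. Just outside the rule, the 631 regions whose only Untreated peak was in replicate 1 had a median fold there of 3.38, and the 13704 whose only Untreated peak was in replicate 2 had one of 6.40. Just outside it on the treated side, 1823 regions lacked only the Ibet only peak, 1224 only that of RANKL+Ibet replicate 1, 687 only that of RANKL replicate 2, 446 only that of RANKL replicate 1 and 41 only that of RANKL+Ibet replicate 2, the library with the highest background pileup. How much of these differences came from depth was not tested.

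**Figure D3:**
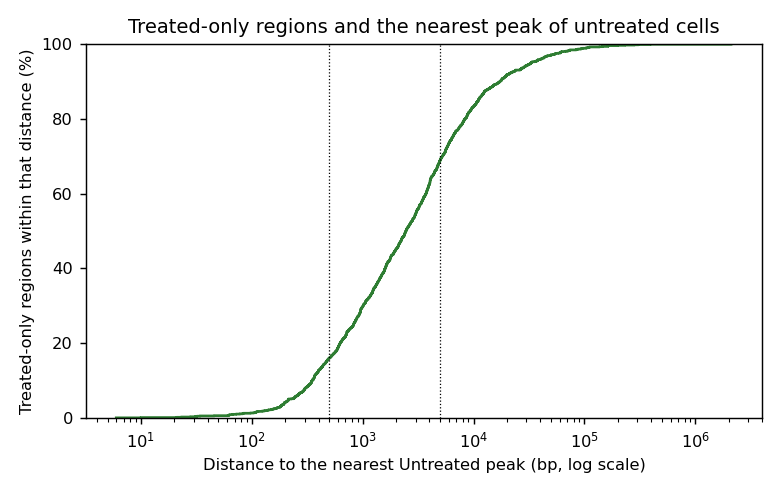
Share of the 1390 treated-only regions (y axis, %) with an Untreated peak within the distance on the x axis (bp, log scale); dotted lines mark 500 bp and 5 kb. The curve passes 16.0% at 500 bp and 68.9% at 5 kb.

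The strongest region, by the mean strength over the 5 treated libraries, was chr4:12600453-12601099 with no protein-coding gene within 100 kb. Its folds were 8.79 and 8.21 in RANKL cells, 8.95 and 12.9 in RANKL+Ibet cells and 6.15 in Ibet only cells, and the nearest Untreated peak was 29357 bp away. The third, chr14:106681146-106681710, also had no gene within 100 kb, with 7.42 and 9.20 in RANKL cells, 5.69 and 10.1 in RANKL+Ibet cells and 7.09 in Ibet only cells. The within-list strength ranged from 67.3% in RANKL replicate 2 to 82.2% in RANKL+Ibet replicate 2 at the first, with 70.5% in Ibet only, and from 68.5% to 78.0% at the other, with 74.4% in Ibet only.

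Between them came a region inside Pls3, which encodes the actin-bundling protein plastin 3, at chrX:75814101-75814694. It had 8.79 and 12.2 in RANKL cells, 8.13 and 11.1 in RANKL+Ibet cells and 4.26 in Ibet only cells. The within-list strength was 55.3% in Ibet only and 76.5% to 81.1% in the 4 libraries with RANKL, and an Untreated peak lay 319 bp away. The region inside Pds5b, a regulator of cohesin, at chr5:150717722-150718212 was the reverse: 6.25 and 6.90 in RANKL cells, 5.90 and 7.54 in RANKL+Ibet cells and 8.04 in Ibet only cells, where the within-list strength, 77.4%, was the highest of the 5.

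Ppp3ca encodes the catalytic subunit of calcineurin, the phosphatase that activates NFATc1, and held 2 treated-only regions. That at chr3:136676936-136677473, inside the gene, was the twelfth strongest, with 6.84 and 7.56 in RANKL cells, 5.90 and 11.4 in RANKL+Ibet cells and 3.78 in Ibet only cells. The other, at chr3:136788596-136789195, had 5.08 and 4.60 in RANKL cells, 4.07 and 5.32 in RANKL+Ibet cells and 3.78 in Ibet only cells. Ppp3ca had 87 regions in all, 10 of them called in all 7 libraries.

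Btg1, an antiproliferative factor, had a region 10470 bp from the gene with 7.82 and 8.54 in RANKL cells, 6.30 and 8.82 in RANKL+Ibet cells and 3.78 in Ibet only cells. At Dst, which encodes the cytoskeletal linker dystonin, the values were 5.28 and 6.57 in RANKL cells, 4.68 and 9.57 in RANKL+Ibet cells and 6.15 in Ibet only cells. Baiap2l1, a membrane-bending adaptor of actin, had 6.84 and 7.23 in RANKL cells, 5.90 and 5.66 in RANKL+Ibet cells and 5.20 in Ibet only cells. The region 14534 bp from Tmem158 had 6.45 and 6.90 in RANKL cells, 5.49 and 6.53 in RANKL+Ibet cells and 5.68 in Ibet only cells. Inside Pcdh9, a protocadherin gene, the region had 10.7 and 7.88 in RANKL cells, 5.49 and 8.69 in RANKL+Ibet cells and 3.78 in Ibet only cells, with the nearest Untreated peak 2127220 bp away. Iftap and Tmco5 were the nearest genes of the other 2. At the weak end, the regions inside Smarca4, the ATPase of the BAF remodelling complex, and Iqsec1, an exchange factor for ARF6, and 535 bp from Ptprn2 had folds of 2.29 to 3.29 in every treated library.

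**Figure D4:**
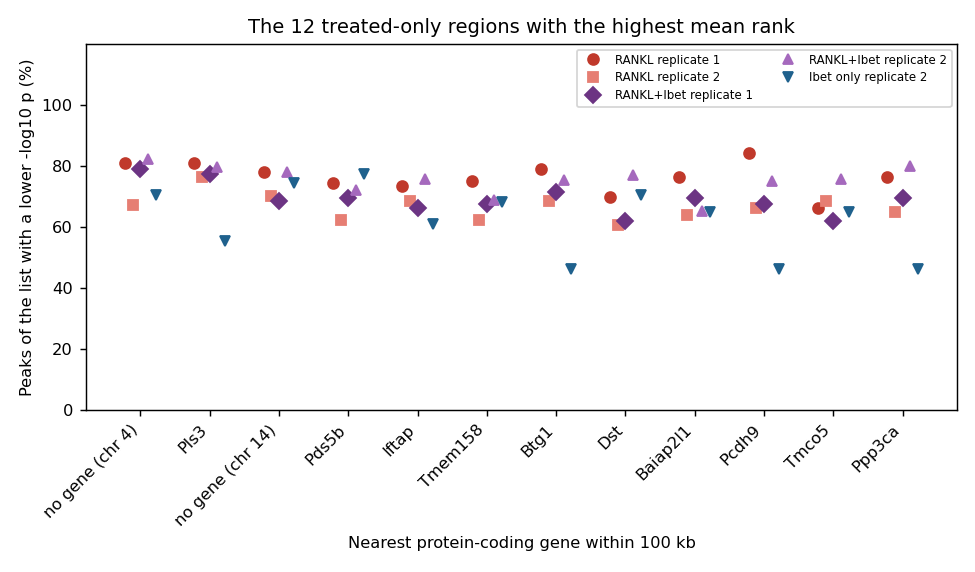
Within-list strength (y axis, share of the library's peaks with a smaller -log10 p, %) of the 12 strongest treated-only regions in the 5 treated libraries (1 symbol each), by nearest gene (x axis). Values run from 46.1% to 84.2%; the Ibet only library is the lowest of the 5 in 5 regions and the highest at Pds5b, and RANKL replicate 2 is the lowest in 5 others.

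The 1262 regions with a protein-coding gene within 100 kb were spread over 1149 genes, of which 1057 had 1 region, 73 had 2, 17 had 3 and 2 had 4. The genes with 4 were Ywhaz, which encodes the signalling adaptor 14-3-3 zeta, and Prkca, which encodes protein kinase C alpha. At Ywhaz all 4 lay outside the gene, 10697 to 85312 bp away. The strongest, chr15:36818615-36819345, had 2.93 and 11.2 in RANKL replicates 1 and 2, 3.46 and 15.2 in RANKL+Ibet replicates 1 and 2, and 3.31 in Ibet only replicate 2. Its within-list strength was 74.7% in RANKL replicate 2 and 84.6% in RANKL+Ibet replicate 2, and 30.7% to 46.2% in the other 3 libraries. The RANKL+Ibet replicate 2 fold was the highest of any treated-only region in that library. At Prkca 3 of 4 lay inside the gene. That at chr11:108079422-108079953 had its highest within-list strength in Ibet only (74.4%, against 11.4% to 61.3% in the other 4), with 7.09 in Ibet only cells beside 4.10 and 2.96 in RANKL cells and 3.46 and 2.96 in RANKL+Ibet cells. Prkca is long, at 410502 bp, and had 97 regions in all.

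Of the genes with 3, those ranked highest included Golim4, Hivep3, Fars2, Hhat, Dock1, Acoxl and Abcd3. Dock1 encodes an activator of the GTPase Rac and Hhat the acyltransferase of Hedgehog proteins. Hivep3, which encodes a zinc-finger regulator of bone mass known from mice, held chr4:119922749-119923588 with 11.7 and 4.27 in RANKL cells, 5.29 and 6.06 in RANKL+Ibet cells and 4.26 in Ibet only cells. RANKL replicate 1 had its highest fold of the 1390 regions there. These genes had 44 to 251 regions each, and a gene with more regions has more chances to hold one of this kind.

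NF-kB genes come next in the order of the pathway. Of 25 genes of that list 3 had a treated-only region, with 5 regions in all, 8.94 of 1000 of their regions, against 4.02 of 1000 over all genes. Nfkbiz, which encodes a nuclear IkB protein induced by inflammatory signals, held 3 of the 5. The one 21430 bp from the gene, chr16:55789270-55789945, had 4.30 and 4.27 in RANKL cells, 3.66 and 4.51 in RANKL+Ibet cells and 3.78 in Ibet only cells. The one 78265 bp away, chr16:55732547-55733110, had 2.15 and 4.60 in RANKL cells, 4.07 and 4.11 in RANKL+Ibet cells and 6.62 in Ibet only cells. Its within-list strength was highest in Ibet only (72.6%), but an Untreated peak lay 32 bp from it. The one inside the gene, chr16:55830732-55831181, was among the weakest of all, with 2.02 to 3.31. No base of it lay under peaks of all 5 treated libraries, so that the joining of neighbouring peaks made it. Tnip3 and Tnfaip3, which both restrain NF-kB signalling, had 1 each, inside the gene. Tnip3 had 2.93 and 4.27 in RANKL cells, 3.66 and 6.20 in RANKL+Ibet cells and 3.31 in Ibet only cells. Tnfaip3 had 3.52 and 2.96 in RANKL cells, 2.85 and 3.64 in RANKL+Ibet cells and 3.31 in Ibet only cells. The -log10 q in Ibet only was 1.90 at both Tnip3 and Tnfaip3, under 2 as at 44.6% of the treated-only regions. At chr16:55732547-55733110 the -log10 q was 0.80 in RANKL replicate 1.

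Inflammatory cytokine genes had 4 regions at 4 of 24 genes (9.69 of 1000). Csf1 encodes the macrophage growth factor that osteoclast precursors need beside RANKL, and its region, 22692 bp away, had 4.88 and 3.94 in RANKL cells, 5.49 and 4.45 in RANKL+Ibet cells and 3.78 in Ibet only cells. The region 33217 bp from the chemokine gene Cxcl1 had 5.08 and 3.94 in RANKL cells, 3.05 and 4.58 in RANKL+Ibet cells and 5.20 in Ibet only cells. Cxcl3, another neutrophil chemokine gene, had one inside the gene with 4.10 and 4.27 in RANKL cells, 3.25 and 3.84 in RANKL+Ibet cells and 2.36 in Ibet only cells, the lowest fold called in the Ibet only list. Il1rn, the interleukin-1 receptor antagonist gene, had one 3745 bp away with 2.15 and 4.27 in RANKL cells, 3.46 and 3.44 in RANKL+Ibet cells and 4.73 in Ibet only cells. The within-list strength in Ibet only was the highest of the 5 at Il1rn (61.0%), the lowest at Cxcl3 (1.78%) and between the others at Cxcl1 (64.9%) and Csf1 (46.1%).

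Interferon response genes had 4 regions at 2 of 21 genes (19.2 of 1000), all at the neighbouring guanylate-binding protein genes Gbp3 and Gbp5, GTPases that act against intracellular microbes. The strongest, inside Gbp3 at chr3:142561348-142562103, had 10.6 and 4.27 in RANKL cells, 7.52 and 4.92 in RANKL+Ibet cells and 3.78 in Ibet only cells, with a within-list strength of 84.0% and 75.6% in both replicates 1 and 42.1% to 61.0% in the 3 replicates 2. The other inside Gbp3 had 2.93 and 2.96 in RANKL cells, 2.64 and 4.24 in RANKL+Ibet cells and 4.26 in Ibet only cells. The 2 nearest to Gbp5 lay 33373 and 26539 bp away, with 5.86 and 4.27 in RANKL cells, 4.07 and 3.50 in RANKL+Ibet cells and 4.26 in Ibet only cells at the first, and 2.54 and 2.63 in RANKL cells, 3.66 and 2.83 in RANKL+Ibet cells and 4.26 in Ibet only cells at the second. Gbp genes are a family of close copies, so reads there may be shared between copies, and how the authors treated such reads is not given in the sources used here. The strongest lay 80 bp from a region of all 7 libraries and 248 bp from an Untreated peak.

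**Figure D5:**
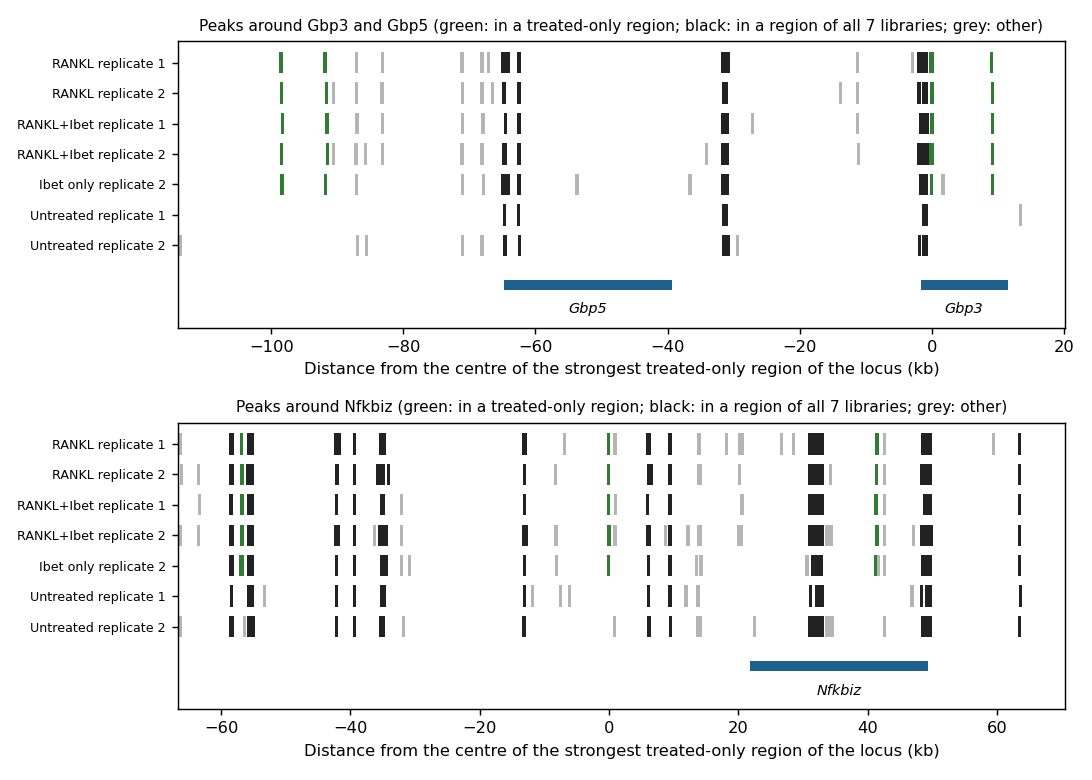
Peaks of the 7 libraries (rows, treated above Untreated) around Gbp3 and Gbp5 (top) and Nfkbiz (bottom) by distance from the centre of the strongest treated-only region of the locus (x axis, kb); blue bars are genes, and peaks under 500 bp are drawn 500 bp wide. Green peaks belong to the 4 and 3 treated-only regions and are present in the 5 treated rows and absent from both Untreated rows; black peaks belong to regions of all 7 libraries.

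Among AP-1 and early response genes 2 of 25 had 1 region each (4.04 of 1000). Jun, the AP-1 subunit, had one 75708 bp away with 3.71 and 5.59 in RANKL cells, 3.86 and 5.12 in RANKL+Ibet cells and 3.31 in Ibet only cells. Klf6, a zinc-finger factor of the early response, had one 71724 bp away with 3.71 and 4.93 in RANKL cells, 2.64 and 4.31 in RANKL+Ibet cells and 4.26 in Ibet only cells. Dusp5, a nuclear ERK phosphatase, was the 1 of 11 ERK feedback genes (2.94 of 1000). Its region lay 37516 bp away, and 1411 bp from the nearest transcription start. It had 3.71 and 7.23 in RANKL cells, 3.25 and 5.25 in RANKL+Ibet cells and 3.31 in Ibet only cells. Its within-list strength was highest in both replicates 2 with RANKL (63.7% and 63.0%). Of 24 osteoclast genes only Jdp2, whose AP-1-like product promotes osteoclast differentiation in mice, had one, 4796 bp away (1.49 of 1000 over the list). It had 3.13 and 3.61 in RANKL cells, 4.68 and 4.99 in RANKL+Ibet cells and 2.84 in Ibet only cells. Nfatc1, Acp5 and Ctsk had 0 of 76, 18 and 14 regions, and Fos and Myc had 0 of 50 and 52. At the share over all genes, 4.02 of 1000, a gene with so few regions would mostly have none, and these zeros say little. Peaks that grew within a region shared with untreated cells cannot appear among the treated-only regions.

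Adhesion, cytoskeleton and guidance genes had 6 regions at 4 of 24 genes (5.38 of 1000). Plxna2, a semaphorin receptor gene, and Itga4, an integrin chain gene, had 2 each. The others lay 55154 bp from Cd44, the hyaluronan receptor gene, and inside Vcl, the vinculin gene. One of those at Plxna2, chr1:194753107-194753572, had its highest within-list strength in Ibet only (74.4%), with a fold of 7.09 in Ibet only cells beside 4.30 and 4.60 in RANKL cells and 3.25 and 4.72 in RANKL+Ibet cells. Genes of BET proteins, elongation and histones had 1 region at 1 of 23 genes (2.98 of 1000), 19741 bp from Ell2, an elongation factor gene, with 4.49 and 4.27 in RANKL cells, 3.86 and 4.51 in RANKL+Ibet cells and 5.20 in Ibet only cells. Brd2 had 0 of 10, too few regions to read at 4.02 of 1000 over all genes. Myc network genes had 3 at 3 of 21 genes (7.75 of 1000). They lay inside Mlxip, a glucose-sensing partner of Mlx, inside Mxi1, a Myc antagonist, and 45320 bp from Eif4e, the cap-binding translation factor gene. Lysosome and autophagy genes had 1 at 1 of 20 (2.62 of 1000), at Uvrag, 21 bp from a region of all 7 libraries.

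Macrophage identity genes had 3 at 3 of 27 genes (2.92 of 1000), at the integrin gene Itgax, the GM-CSF receptor gene Csf2ra and the transcription factor gene Runx3. Itgax had 4.10 and 3.61 in RANKL cells, 5.08 and 4.65 in RANKL+Ibet cells and 3.31 in Ibet only cells. The values at Csf2ra were 2.74 and 2.63 in RANKL cells, 2.85 and 3.23 in RANKL+Ibet cells and 3.31 in Ibet only cells. The Csf2ra region, ranked 1322 by mean within-list strength, was 1743 bp long, and its best summits spread over 1013 bp. It lay 78 bp from a region of all 7 libraries and 328 bp from an Untreated peak. The values at Runx3 were 2.34 and 2.96 in RANKL cells, 2.44 and 4.18 in RANKL+Ibet cells and 3.78 in Ibet only cells. Irf8, a repressor of osteoclast formation, had 0 of 93. Among genes of other lineages, Lck of the T lymphocyte list and Runx2 of the fibroblast and osteoblast list had 1 each (3.46 and 3.07 of 1000). The B lymphocyte and the granulocyte and erythroid lists had 0 of 162 and 0 of 77 regions. At the share over all genes, 4.02 of 1000, so few regions would often hold none, and these zeros say little. Over all lists 27 of 295 genes had 33 regions, 4.86 of 1000 of their regions, against 4.02 of 1000 over all genes. The lists were chosen with earlier results of these data known, most of the counts are 1 to 6, and no list was tested.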

How the data were processed

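Per the labels' protocols, each ATAC-seq library came from 50000 cells, and both fragment ends were sequenced for 100 bp. MACS2, Bowtie2, cutadapt, SAMtools, Picard, FastQC and bedtools, with the build mm10, are named per the submitters' processing notes; versions and settings are not given in the sources used here. The authors deposited 1 peak list per library that gives every peak a −log10 p, a −log10 q, a fold over background (a ratio) and a score. The authors' deposited values served to describe peaks and to rank them within 1 list; folds were not ordered between lists, and ranks set side by side between lists are descriptions that show no change. Read depth is unknown except through the deposited folds.

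Peaks (975394 in all) were joined, and regions were called at 1 bp of overlap, with Python 3.11.15, pandas 2.3.3 and SciPy 1.17.1. Where a library had several peaks in a region, the one with the largest −log10 p was used. The joining and calling were tested on simulated data. Regions were assigned to the nearest protein-coding gene body within 100 kb, and promoter windows, starts and microRNAs were matched by position, all from RefSeq for GRCm38.p6, which shares mm10 coordinates. Of the gene symbols in 15 lists, 3 were not in the table, and 5 matched by an older symbol. Exact (Clopper-Pearson) 95% intervals on counts of regions cover counting error only. No test was made on calls that chose the regions.

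The regions and lists were chosen with earlier results of these data known. Named genes were the 10 with most regions (1 is not reported here), list genes with a region (at most 5 per list), Acp5, Brd2, Ctsk, Fos, Irf8, Myc and Nfatc1 in any case, the nearest genes of the 12 strongest and 3 weakest regions, and promoters of the 12 strongest regions over a promoter window. The alternatives were stricter q values, lists of equal length, 50% coverage, unjoined peaks, distance to Untreated peaks, gene distances and leaving out each library.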

Additional observations from a re-analysis of the deposited data

How the results depend on the processing

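The number of treated-only regions depended on the peak threshold, on the distance to Untreated peaks and on single libraries. It was 709 with peaks of a −log10 q of at least 2 in all lists, 342 at 5, 432 without regions that had an Untreated peak within 5 kb, and 581 when only the treated peaks had to reach 2. It changed less with lists of equal length (981), with 50% of the region covered (1100) and with unjoined RANKL replicate 2 peaks (1480). Leaving out 1 library gave 1431 (RANKL+Ibet replicate 2) to 15094 regions (Untreated replicate 2). The share within 1 kb of a gene end moved with list length, with how regions were formed and with the distance to Untreated peaks. It was 2.14% with lists of equal length, 5.91% with 50% of the region covered and 4.39% with unjoined RANKL replicate 2 peaks. The 50% rule applied to Untreated peaks too, so its regions could hold a smaller Untreated peak. Without an Untreated peak within 5 kb the share was 1.62%. With peaks of a −log10 q of at least 2 and 5 in all lists it was 2.96% and 2.34%. When 1 library was left out it was 3.07% to 4.66%, the highest without Untreated replicate 2. Within 500 bp of a gene end it was 1.80%, and within 5 kb 18.8%. The share inside genes was 48.6% without an Untreated peak within 5 kb and 51.9% to 55.1% when 1 library was left out. List genes with a region numbered 27, 11 at a −log10 q of at least 2 in all lists, 9 when only the treated peaks had to reach 2, and 36 without Untreated replicate 1. The cause of these differences was not tested, beyond the smaller number of peaks and libraries used. The requirement on treated peaks alone, and that of a base shared by all 5 treated libraries (1143 regions), were chosen after seeing the data.

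No paired analysis was possible because the counts come from no test that takes a block. As plain counts, among libraries numbered 1, 26464 of the 344401 regions had a peak in both treated libraries and none in Untreated. The reverse, a peak in Untreated and in no treated library, was found at 62533. Among those numbered 2, with 3 treated libraries, the counts were 6232 and 11456. Within each number the reverse kind was the more frequent, and over all 7 libraries the less frequent (799 against 1390). These counts ask for unlike things. Within a number the reverse kind needed a peak in 1 Untreated library, and over all 7 in both. The other kind needed a peak in every treated library counted. Of the regions called in Untreated replicate 1, 42.9% were called in no other library. The counts therefore show no direction. No label ties a number to a shared day. The planned motif window was not run, since no genome was held. The low pileup of the Ibet only library (1.11 in the background) limits what its calls can show.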
